A study of Homo sapiens with 15 samples.

Results

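MESP1, MESP2, TBX6, MSGN1, DLL3, HES7 and LFNG are 7 genes of early mesoderm and of the presomitic mesoderm, the unsegmented tissue that flanks the embryonic axis and buds off somites. They were taken by symbol from the 60605 genes of the deposited table, and all 7 were found. Bulk RNA sequencing gave their transcript levels in 15 libraries from H1, an established human embryonic stem cell line, under cardiac differentiation. All libraries carry the wild-type genotype. Cells were taken to mesendoderm from day 0 with CHIR99021, which activates WNT signalling by inhibiting GSK3, followed by insulin on day 1. Days 0, 1 and 2 have 1 library each that all arms share. NP-ctrl cells (not passaged) then stayed in their wells and differentiated spontaneously. NP-IWP2 cells were not passaged either and were treated from day 2 with IWP2, which inhibits Porcupine and so blocks WNT secretion. The treatment had ended by day 5, and from then on the medium held no inhibitor. Passaged cells were detached with EDTA on day 2 and replated at a lower density on Matrigel with the ROCK inhibitor Y27632 and no WNT inhibitor, so that detachment, dilution and the ROCK inhibitor arrive together. Each arm has 1 library on each of days 3, 5, 7 and 10, from 1 line and 1 course, so no value below has a replicate.

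In the embryo, mesoderm that leaves the primitive streak takes different paths depending on where it exits. MESP1 marks the earliest cells of the heart and vessels, and its close relative MESP2 sets the boundary and the polarity of each forming somite. TBX6 and MSGN1 are transcription factors that hold cells in the presomitic state. Somites form under a segmentation clock in which Notch signalling, its repressor HES7 and the sugar-transferring enzyme LFNG switch on and off in cycles, while DLL3 is a divergent Delta protein that acts on Notch from inside the cell.

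The genes lie on 6 chromosomes of the hg38 build. MESP1 (ENSG00000166823, chromosome 15, 89748661 to 89751310, minus strand) and MESP2 (ENSG00000188095, chromosome 15, 89760591 to 89778754, plus strand) are neighbours that point away from each other, with 9281 bases between them. TBX6 (ENSG00000149922) lies on chromosome 16 from 30085793 to 30091924, MSGN1 (ENSG00000151379) on chromosome 2 from 17816460 to 17817798, and DLL3 (ENSG00000090932) on chromosome 19 from 39498895 to 39508481. HES7 (ENSG00000179111) lies on chromosome 17 from 8120592 to 8124106, and LFNG (ENSG00000106003) on chromosome 7 from 2512529 to 2529177. MESP1 and MESP2 share short stretches of sequence. The longest identical run between their transcripts in GENCODE release 44 was 48 bases, and 86 of the 1094 bases of the MESP1 transcript lay in identical runs of at least 25 bases. Reads from these stretches could be split between the genes, whereas no other pair of the 7 shared a run longer than 15 bases.

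Promoter windows of the 250 bases before the annotated start are shown because all 7 genes read highest on day 2. Their courses otherwise differed. RefSeq windows on GRCh38.p14 were matched for TBX6, MSGN1, MESP2, HES7 and LFNG, 5 of the 7 genes with 6 windows in all, LFNG having a window at each of 2 starts. MESP1 and DLL3 were not matched. Both strands were searched for a core of the T-box factors (AGGTGT), a site of the Notch effector RBPJ (GTGGGAA), a core of the WNT effectors TCF and LEF (CTTTGA), and the E-box (CACGTG) and N-box (CACGAG) that HES proteins can bind. Capitals mark the matches, on either strand, in the 4 windows that held any. The sequences are those of MESP2 (chr15:89776082-89776331, plus strand, inside an intron of the longer annotated gene), MSGN1 (chr2:17816210-17816459, plus strand), HES7 (chr17:8124107-8124356, minus strand) and the inner start of LFNG (chr7:2517613-2517862, plus strand, intronic in the longer form).
MESP2: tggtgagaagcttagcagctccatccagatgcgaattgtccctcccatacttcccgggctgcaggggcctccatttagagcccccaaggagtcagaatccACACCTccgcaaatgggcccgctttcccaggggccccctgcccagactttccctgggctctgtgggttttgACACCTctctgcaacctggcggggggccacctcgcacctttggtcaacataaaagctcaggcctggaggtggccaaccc
MSGN1: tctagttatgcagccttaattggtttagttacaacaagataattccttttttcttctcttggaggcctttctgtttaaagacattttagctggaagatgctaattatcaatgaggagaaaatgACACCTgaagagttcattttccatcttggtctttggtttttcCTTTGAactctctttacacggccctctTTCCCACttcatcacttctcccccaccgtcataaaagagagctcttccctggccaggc
HES7: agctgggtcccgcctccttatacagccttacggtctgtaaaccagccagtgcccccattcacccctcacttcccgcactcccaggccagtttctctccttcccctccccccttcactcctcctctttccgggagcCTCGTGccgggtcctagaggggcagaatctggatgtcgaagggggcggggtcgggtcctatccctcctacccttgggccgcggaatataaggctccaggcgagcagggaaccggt
LFNG inner start: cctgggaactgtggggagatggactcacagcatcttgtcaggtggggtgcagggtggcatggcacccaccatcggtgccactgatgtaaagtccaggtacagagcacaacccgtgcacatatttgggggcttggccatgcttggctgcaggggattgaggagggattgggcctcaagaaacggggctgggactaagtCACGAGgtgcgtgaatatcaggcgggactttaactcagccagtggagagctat

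The MESP2 window held the T-box core at 2 places, 150 and 79 bases before the start, both read on the reverse strand. Of all 35116 windows of this length, 9.57% held that core at least once and 0.646% held it at 2 or more places. The MSGN1 window held a T-box core at 127 bases, a TCF and LEF core at 85 bases (in 11.2% of all windows) and an RBPJ site at 58 bases (in 5.43%). An N-box (in 5.58%) stood 115 bases before the HES7 start and 53 bases before the inner LFNG start. The E-box, found in 6.34% of all windows, was in none of the 6. The TBX6 window and the outer LFNG window held none of the 5 motifs. A match of letters is a description of the window, and binding was not measured here.

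Levels are given as FPKM, counts divided by exon length and by library total, so that genes can be set side by side. Total counts ranged from 13254723 to 20250115 per library. At these depths 3 counts of a gene with 1 kb of exon equal an FPKM of 0.148 to 0.226, and values near that level rest on a few reads. Differences between libraries were taken on log2(FPKM + 1), on which changes of low genes look smaller than they are, and a gene was called higher or lower when the difference reached 1. Ratios of 2 libraries carry an exact 95% interval for counting error alone. It takes each read as independent, which PCR copies are not, so it may be too narrow even for that error. The 7 genes were chosen by their measured levels in these libraries, with their timing and their loss after replating known, so their changes are described and not tested. A gene was kept for counts over all genes when any library reached an FPKM of 1, which 21206 of the 60605 genes did. All 7 members did, MSGN1 on days 1 and 2 alone.

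MESP1 stood at 0.40 FPKM on day 0, at 12.00 on day 1 and at 81.8 on day 2. On day 3 its level was 41.8 under NP-ctrl, 39.2 under NP-IWP2 and 2.59 after replating. The day 3 static libraries thus lay close together and the passaged library far below both. From day 5 to day 10, MESP1 ranged from 0.19 to 0.98 over all arms. On day 5 its counts were 34 under NP-ctrl, 33 under NP-IWP2 and 8 after replating.

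MESP2 appeared later than its neighbour. Its level was 0.16 FPKM on day 0, 0.90 on day 1 and 118 on day 2, followed on day 3 by 46.5 under NP-ctrl, 53.2 under NP-IWP2 and 2.71 after replating. The later libraries lay between 0.07 and 0.35. On day 1 the level of MESP1 was 13.3 times that of MESP2, whereas on day 2 the ratio was 0.691 and on day 3 it was 0.901, 0.736 and 0.956 under NP-ctrl, under NP-IWP2 and after replating. The arms therefore differed on day 3 in the level of both genes far more than in their ratio. The exonic length of MESP1 in the table was 2369 bases over a locus wider than in GENCODE release 44 (89749875 to 89751249), so its FPKM may be low relative to that of MESP2.

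TBX6 followed the same course at a lower level, with 0.28, 3.88 and 47.6 FPKM on days 0, 1 and 2. Its day 3 levels were 19.4 under NP-ctrl, 21.8 under NP-IWP2 and 1.01 after replating, and from day 5 it ranged from 0.21 to 1.25. MSGN1 had the lowest peak of the set. It was listed at 0 on day 0, at 1.62 FPKM (40 counts) on day 1 and at 2.07 (56 counts) on day 2. On day 3 it had 5 counts in NP-ctrl and 0 in the NP-IWP2 and passaged libraries, and it stayed at 0 in all 9 later libraries. A count of 0 allows an MSGN1 level of up to 0.132 to 0.169 FPKM in those libraries, counting error only.

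DLL3 had the highest peak of the 7 per length, although LFNG lay above it in all 3 libraries of day 7. It rose from 5.94 FPKM on day 0 to 22.7 on day 1 and 612 on day 2, where it held 32465 counts. On day 3 it stood at 105 under NP-ctrl, 121 under NP-IWP2 and 28.1 after replating, and on day 5 at 5.53, 13.2 and 3.55. On days 7 and 10 DLL3 read 1.61 and 1.50 under NP-ctrl, 3.17 and 3.23 under NP-IWP2 and 1.27 and 0.50 after replating. NP-IWP2 was the highest arm on each of these days and passaged the lowest.

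HES7, the clock repressor, read 0.85, 3.14 and 20.8 FPKM on days 0, 1 and 2. Its day 3 levels were 3.24 under NP-ctrl, 2.05 under NP-IWP2 and 1.01 after replating, resting on 99, 52 and 26 counts, and it ranged from 0.24 to 0.85 later. LFNG had a course of its own. It fell from 4.80 FPKM on day 0 to 1.28 on day 1, rose to 23.8 on day 2, and on day 3 was 3.65 under NP-ctrl, 2.95 under NP-IWP2 and 9.58 after replating. On days 5, 7 and 10 its levels were 4.58, 4.98 and 1.64 in NP-ctrl and 4.34, 3.96 and 1.00 in NP-IWP2. In passaged cells they were 1.92, 1.36 and 0.51, below both static arms on each of the 3 days. LFNG was thus the 1 gene of the set whose passaged library lay above the static ones on day 3.

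**Figure D1:**
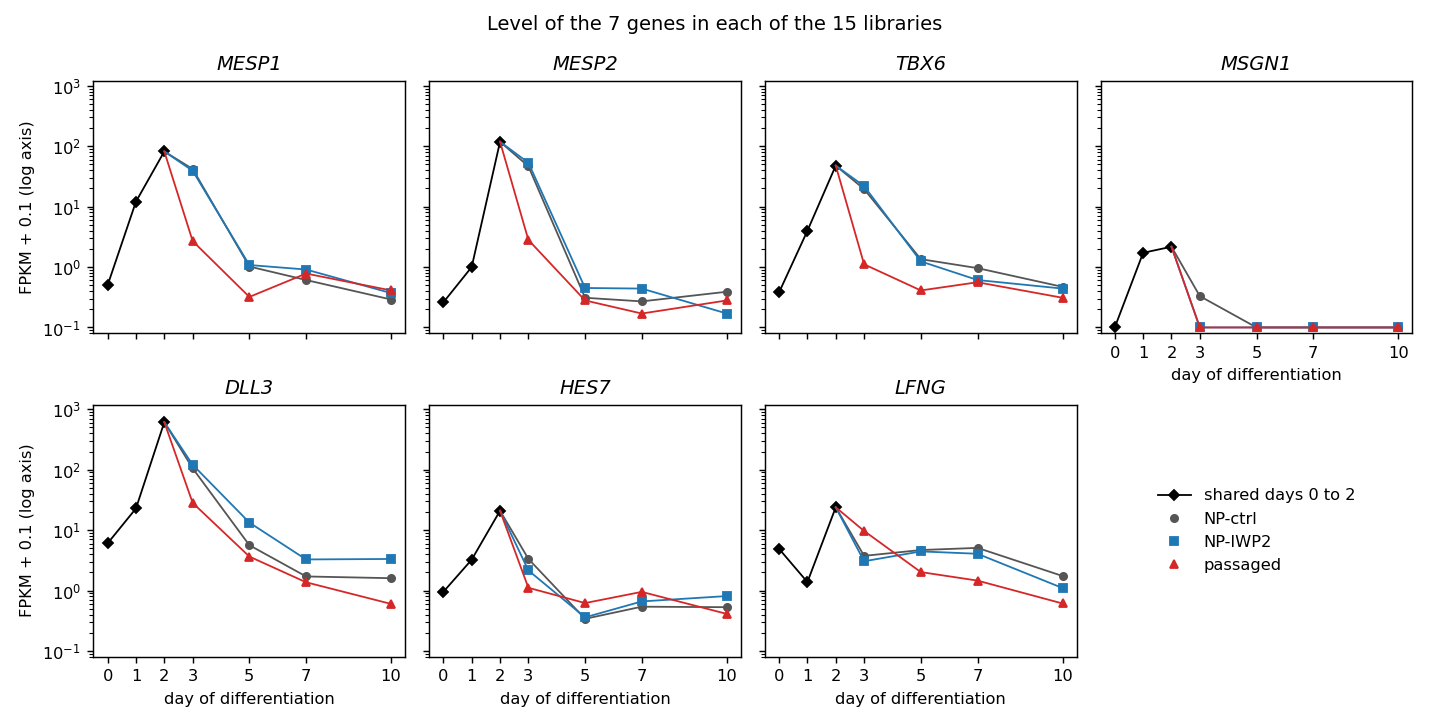
FPKM + 0.1 (log axis) of the 7 genes against the day of differentiation, 1 point per library, black for the shared days 0 to 2, grey for NP-ctrl, blue for NP-IWP2 and red for passaged cells. All 7 genes peak on day 2, MSGN1 by a margin over day 1 within counting error. On day 3 the red points of MESP1, MESP2 and TBX6 (2.59, 2.71 and 1.01 FPKM) lie far below the static arms while that of LFNG (9.58) lies above them.

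The first comparison asks when the genes came on. Every member had its highest level on day 2, MSGN1 by a margin over day 1 within counting error. Between day 0 and day 1, 5 of the 7 were called higher (MESP1, TBX6, MSGN1, DLL3 and HES7), against 3.26% of all genes above the filter, and LFNG was called lower, against 3.48%. Between day 1 and day 2, 6 were called higher, against 4.34% of all genes, and from day 0 to day 2 all 7 were, against 6.57%. The choice of the genes used this course, so these counts carry no weight of their own.

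The steps differed in size between the genes. MESP1 was 30.1-fold higher on day 1 than on day 0 (18.4 to 53.1) and a further 6.82-fold higher on day 2 (6.23 to 7.49). MESP2 was 5.52-fold higher at the first step (2.12 to 18.2, from 5 counts to 30) and 132-fold higher at the second (92.1 to 196). The earlier start of MESP1 thus exceeded counting error, and most of the increase of MESP2 fell between days 1 and 2.

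The presomitic factors had courses of their own. TBX6 was 13.9-fold higher at the first step (8.27 to 25.3) and 12.3-fold at the second (10.7 to 14.1). MSGN1 was at least 12.3-fold higher at the first step and 1.28-fold at the second, with an interval of 0.835 to 1.96 that includes no difference. Of the clock and Notch genes, the second step was 27.0-fold for DLL3 (25.4 to 28.6), 18.6-fold for LFNG (14.9 to 23.5) and 6.62-fold for HES7 (5.42 to 8.17).

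The next comparison asks how much of the day 2 level was left a day later, with and without replating. In NP-ctrl, 6 of the 7 genes were called lower on day 3 than on day 2, against 4.35% of all genes, and MESP1 with a log2 difference of −0.95 lay just outside the threshold (−1.06 with TPM, which passes it). In NP-IWP2 all 7 were called lower, against 2.92%, and in passaged cells all 7, against 5.00%. In bulk RNA a loss of cells that express a gene and a lower level per cell cannot be told apart.

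MESP1, MESP2 and TBX6 kept the largest shares in the static arms and, of the 6 genes still counted there, the smallest after replating. In NP-ctrl 51.1% of the day 2 level of MESP1 was left (48.2 to 54.2%), 40.7% of TBX6 (37.9 to 43.8%) and 39.2% of MESP2 (36.9 to 41.7%). With IWP2 the shares were 47.9%, 45.7% and 44.9%, and their counting intervals overlapped. In passaged cells 3.17% of MESP1 was left (2.52 to 3.93%), 2.29% of MESP2 (1.77 to 2.91%) and 2.13% of TBX6 (1.54 to 2.86%).

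The Notch and clock genes had already lost most of their level in static culture. DLL3 kept 17.2% under NP-ctrl (16.7 to 17.7%), 19.7% under NP-IWP2 and 4.60% after replating (4.31 to 4.89%). HES7 kept 15.6% (12.5 to 19.2%), 9.84% and 4.85% (3.15 to 7.16%). LFNG turned the order around, with 15.4% left under NP-ctrl (13.3 to 17.8%), 12.4% under NP-IWP2 and 40.3% after replating (36.3 to 44.8%). MSGN1 kept 11.1% in NP-ctrl (3.48 to 27.5%, from 5 counts), and was at least 12.4-fold below day 2 in NP-IWP2 and 12.6-fold in passaged cells, where it had 0 counts.

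**Figure D2:**
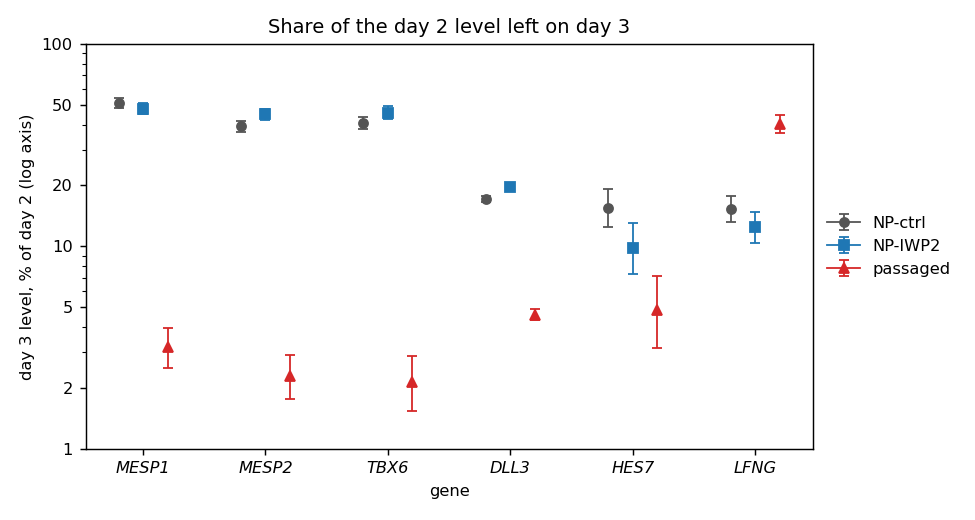
Level on day 3 as a percentage of day 2 (log axis) for 6 of the 7 genes in NP-ctrl (grey), NP-IWP2 (blue) and passaged cells (red), with exact 95% counting intervals as bars. MSGN1 is left out because it had 0 counts in 2 of the arms. MESP1, MESP2 and TBX6 keep 39.2 to 51.1% in the static arms against 2.13 to 3.17% in passaged cells, and LFNG keeps 40.3% in passaged cells against 15.4 and 12.4%.

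Set directly against NP-ctrl on day 3, passaged cells had 5 of the 7 genes called lower (MESP1, MESP2, TBX6, DLL3 and HES7), against 3.48% of all genes, and LFNG called higher, against 5.02%. TBX6 was 19.2-fold lower (14.2 to 26.5), MESP2 17.2-fold (13.4 to 22.3) and MESP1 16.1-fold (13.0 to 20.4), so that their intervals overlapped. DLL3 was 3.74-fold lower (3.49 to 4.01) and HES7 3.21-fold lower (2.06 to 5.15), outside the intervals of the first 3 genes. LFNG was 2.62-fold higher (2.22 to 3.11). The median difference over the 7 genes was −1.87 on the log2 scale, and over all genes it was 0.03. Of all genes changed in this comparison 59.1% were higher, a share of 48.5% with median-of-ratios scaling and 75% with TPM, while MESP1 stayed between −3.96 and −3.58 under the alternatives tried.

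Against NP-IWP2 on the same day, 4 genes were called lower in passaged cells, against 5.05% of all genes, and LFNG higher, against 3.65%. TBX6 was 21.5-fold, MESP2 19.7-fold, MESP1 15.1-fold and DLL3 4.29-fold lower. HES7 was 2.03-fold lower (1.24 to 3.38) without reaching the call, and LFNG was 3.24-fold higher (2.68 to 3.95). The passaged library is the same in both comparisons, so they are not separate evidence of its level.

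The static arms, NP-IWP2 and NP-ctrl, were then compared on day 3. None of the 7 was called, against 4.15% of all genes changed in either direction. Among 7 genes, no call is near that share and is not a result about the set. The ratio was 0.936 for MESP1 (0.869 to 1.01), 1.15 for MESP2 (1.06 to 1.24), 1.12 for TBX6 (1.03 to 1.23) and 1.15 for DLL3 (1.10 to 1.20). Of the clock genes, HES7 stood at 0.633 of its NP-ctrl level (0.443 to 0.894) and LFNG at 0.809 (0.648 to 1.01). The difference of MESP1 between the static arms changes sign with the scaling, from −0.25 with TMM factors to 0.02 with TPM.

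Other features of the passaged day 3 library moved with these levels. Genes of the mitochondrial genome took 1.53% of its counts, whereas NP-ctrl had 4.80% and NP-IWP2 4.66%. With those counts left out of the totals, the log2 difference from NP-ctrl was −3.63 for MESP1, −3.73 for MESP2 and −3.40 for TBX6, against −3.58, −3.68 and −3.34 with them. Of 10 genes of S phase and mitosis, 3 were called higher after replating than under NP-ctrl (MCM2, MCM6 and PCNA) and none lower, against 5.02% of all genes higher and 3.48% lower. The list as a whole did not move together, with a median log2 difference of 0.21. Without a call, MCM5, MKI67 and TYMS differed by 0.91, 0.30 and 0.11. CDK1, CCNB1, CCNA2 and TOP2A differed by −0.32, −0.30, −0.20 and −0.09. The part of the mitochondrial share and of the cell cycle genes in the result was not tested.

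By day 5 the static arms had lost most of the day 3 level of MESP1, MESP2, TBX6, DLL3 and HES7 too. LFNG instead stood at 1.25 times its day 3 level in NP-ctrl (1.04 to 1.51) and 1.47 times in NP-IWP2 (1.18 to 1.83). From day 3 to day 5, MESP1, MESP2, TBX6, DLL3 and HES7 were called lower in NP-ctrl (5 genes, against 5.72% of all genes) and in NP-IWP2 (5, against 7.05%), and 4 genes were called lower in passaged cells (against 6.67%), which were MESP1, MESP2, DLL3 and LFNG. In NP-ctrl the fall was 45.7-fold for MESP1, 220-fold for MESP2 (to 6 counts) and 19.0-fold for DLL3. Between passaged cells and NP-ctrl on day 5, none of the 7 was called in either direction, against 8.16% of all genes.

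Low levels still differed on day 5 beyond counting error for some genes. MESP1 was 4.14-fold lower after replating than under NP-ctrl (1.88 to 10.4) and TBX6 4.03-fold lower (2.26 to 7.62), with 8 against 34 and 15 against 62 counts. LFNG was 2.39-fold lower (1.89 to 3.04) and DLL3 1.56-fold lower (1.26 to 1.94). For MESP2 and HES7 the intervals included no difference (0.207 to 3.36 and 0.844 to 6.38), with at most 15 counts in a library.

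Replating did not take every gene on day 3 to where NP-ctrl stood on day 5. TBX6 was at 0.813 of that level (0.539 to 1.22), which includes no difference. MESP1 was still 2.83-fold above it (1.88 to 4.35), MESP2 12.8-fold (5.58 to 36.1), DLL3 5.09-fold (4.40 to 5.90) and HES7 4.25-fold (1.80 to 11.6). LFNG, which did not fall in NP-ctrl between day 3 and day 5, was 2.09-fold above it (1.79 to 2.45).

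From day 5 on, the calls between arms concerned DLL3 and LFNG. DLL3 was 2.39-fold higher in NP-IWP2 than in NP-ctrl on day 5 (2.04 to 2.81), the 1 call among the 7 in that comparison, where 1.42% of all genes were called higher. It was 3.73-fold lower after replating than under NP-IWP2 on day 5 (against 4.02% of all genes called lower) and 6.44-fold lower on day 10 (against 7.01%). LFNG was 3.66-fold lower after replating than under NP-ctrl on day 7 (2.80 to 4.85, against 8.29% of all genes) and 2.91-fold lower than under NP-IWP2 (against 4.38%). None of the 7 was called between NP-IWP2 and NP-ctrl on day 7 (7.26% of all genes) or day 10 (9.35%), nor between passaged cells and NP-ctrl on day 10 (17.4%).

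The 7 genes were then set beside the other genes of their lists. The presomitic and clock list held 20 genes, 19 of them above the filter, among them all members except MESP1. On day 3, 8 of the 19 were called lower after replating than under NP-ctrl and 1 higher, against 3.48% and 5.02% of all genes, with a median log2 difference of −0.86. Without the members, 4 of 13 were lower and none higher, with a median of −0.82. Against NP-IWP2 the median was smaller, at −0.20 with 7 of the 19 lower and 1 higher, and at −0.17 with 4 of 13 lower and none higher when the members were left out, beside 5.05% of all genes lower and 3.65% higher.

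The 4 genes below NP-ctrl were SNAI1, DLL1, RSPO3 and RIPPLY2. SNAI1, a repressor of epithelial genes, read 99.7 FPKM on day 2 and then 19.9 under NP-ctrl, 22.9 under NP-IWP2 and 4.76 after replating. RIPPLY2, which acts downstream of MESP2 at the somite boundary, had 3.75 on day 2 and 1.68, 0.92 and 0.18 on day 3. The last value lies near the level that rests on a few reads, and RIPPLY2 was not called against NP-IWP2. Not every gene of the list followed. EPHA4, an ephrin receptor of the forming boundary, read 24.8 in NP-ctrl and 29.3 in passaged cells, and ROR2, a receptor of non-canonical WNT signals, 28.6 and 52.7, without a call for either.

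The cardiac list held 20 genes of cardiac mesoderm and progenitors, MESP1 included. On day 3, 8 of the 20 were called lower after replating than under NP-ctrl (MESP1, HAND2, HAND1, KDR, BMP4, ISL1, FOXF1 and TBX3) and NKX2-6 was called higher, against 3.48% and 5.02% of all genes, with a median of −0.66. Without MESP1 the counts were 7 lower and 1 higher of 19. Against NP-IWP2, 6 of the 20 were called lower (MESP1, HAND2, HAND1, TBX20, GATA4 and KDR) and NKX2-6 higher. The shares of all genes were 5.05% and 3.65%, and the list median was −0.72. BMP4, ISL1, FOXF1 and TBX3 were not called in that comparison, so some of the genes named depend on the static arm used. HAND1, a transcription factor of the early heart and extra-embryonic mesoderm, read 671 FPKM under NP-ctrl, 492 under NP-IWP2 and 103 after replating. NKX2-6, a relative of the heart factor NKX2-5, read 2.95, 1.42 and 26.0. A lower level in passaged cells on day 3 was thus seen in some genes of both lists.

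Timing within the lists was counted along the NP-ctrl course. Of the 19 presomitic genes, 11 had their highest level on day 2, but 6 of these are members, which were chosen with their timing known. Of the 13 others, 5 peaked on day 2 (DLL1, RIPPLY2, DUSP4, SNAI1 and ROR2). In the cardiac list MESP1 was the 1 gene of 20 to peak on day 2, and the others peaked between day 3 and day 10. From day 2 to day 3 in NP-ctrl, 10 presomitic genes were called lower and 2 higher (median −1.25), and without the members 4 of 13 were lower and 2 higher (median −0.14). At the same step 9 cardiac genes were higher and none lower (median 0.79). In the background, 4.36% of all genes were called higher and 4.35% lower.

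In the later libraries, when the 7 genes were low, the cardiac genes with the highest level in any 1 library were HAND1, NKX2-5, BMP4 and GATA4. NKX2-5, a core factor of heart muscle progenitors, was at 0.24 FPKM on day 2 and on day 10 read 26.2 under NP-ctrl, 92.3 under NP-IWP2 and 287 after replating. GATA4 changed less between the arms, with 68.3, 78.8 and 71.7 on day 10. HAND1 and BMP4 were lower after replating, with 298, 132 and 77.2 for HAND1 and 45.2, 38.8 and 3.33 for BMP4. MESP1 on day 10 read 0.19, 0.27 and 0.31 in the same libraries.

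**Figure D3:**
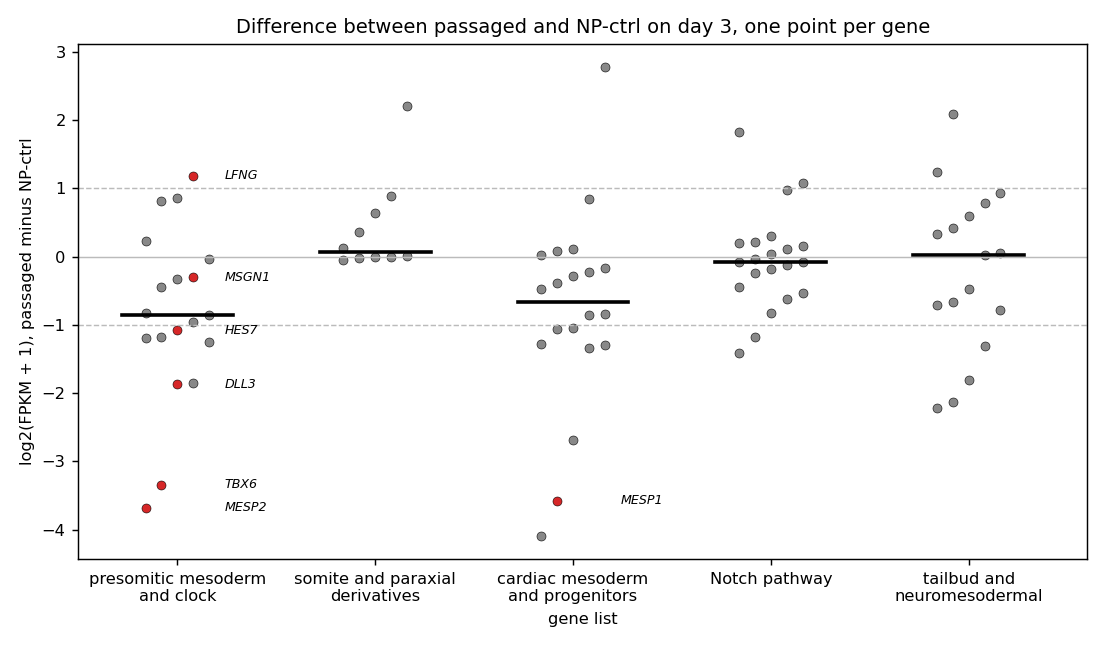
Difference in log2(FPKM + 1) between passaged cells and NP-ctrl on day 3, 1 point per gene above the filter, for 5 gene lists, with the median of each list as a bar and dashed lines at 1 and −1. The named members are in red and lie from −3.68 (MESP2) to 1.19 (LFNG). The medians are −0.86 for the presomitic list, 0.07 for somite derivatives, −0.66 for cardiac mesoderm, −0.08 for the Notch pathway and 0.02 for tailbud genes.

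Genes of the step that follows in paraxial mesoderm were present in part. Of 14 genes of somites and their derivatives, 10 passed the filter. MEOX1 and PAX3, which mark somites, stayed at or under 0.71 and 0.25 FPKM in all 15 libraries, and TCF15 ranged from 2.11 to 3.18 on days 0 to 3, the undifferentiated library included. FOXC1 and FOXC2, forkhead factors of paraxial and other mesoderm, stood at 144 and 23.8 on day 2. On day 3 FOXC1 read 40.8 under NP-ctrl, 55.9 under NP-IWP2 and 39.5 after replating, whereas FOXC2 read 15.9, 26.3 and 77.4. FOXC2 was 4.86-fold higher after replating than under NP-ctrl (4.48 to 5.27). It was the 1 gene of the 10 that was called, and none was lower, against 5.02% of all genes higher and 3.48% lower. A single call among 10 genes is near that share and is not a result about the list. On day 5, 4 of the 10 were called higher in passaged cells (FOXC1, FOXC2, MEOX2 and PAX1), as were 3.74% of all genes. UNCX, a factor of the posterior somite, read 17.6 FPKM under NP-IWP2 on day 5 against 6.47 under NP-ctrl and 3.57 after replating. TBX18, a factor of the anterior somite and of the epicardium, was near 0 up to day 3 and on day 10 stood at 40.6 in NP-ctrl and 65.1 in NP-IWP2 but at 0.08 in the passaged library.

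The Notch pathway list held 25 genes other than the members, 21 above the filter. On day 3, JAG1 and NOTCH3 were called higher after replating than under NP-ctrl and HEY2 and DLL1 lower, against 5.02% of all genes higher and 3.48% lower, with a median of −0.08. DLL1, the Delta ligand that drives Notch in the presomitic mesoderm, shared with DLL3 the day 2 peak and the order of the arms on day 3. It read 155 FPKM on day 2 and, on day 3, 16.1 under NP-ctrl, 17.2 under NP-IWP2 and 6.53 after replating. Unlike DLL3 it did not rise from day 0 (11.7) to day 1 (10.3). On day 5 DLL1 was highest after replating (8.25, against 6.53 under NP-ctrl and 6.94 under NP-IWP2), where DLL3 was lowest. JAG1, a ligand of another class, read 16.8 on day 2 and then 14.8 under NP-ctrl, 16.0 under NP-IWP2 and 54.9 after replating, a 3.71-fold difference from NP-ctrl (3.54 to 3.90). The ratio of DLL3 to JAG1 in FPKM was 36.4 on day 2 and on day 3 was 7.13, 7.56 and 0.513 under NP-ctrl, under NP-IWP2 and after replating. On day 5 the ratio was 1.15, 0.850 and 0.0525.

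LFNG modifies Notch receptors so that they respond more to Delta and less to Jagged ligands. Its ratio to DLL3 was 0.0388 on day 2, 0.0347 in NP-ctrl and 0.0244 in NP-IWP2 on day 3, and 0.340 in passaged cells. On day 5 it was 0.828 under NP-ctrl, 0.328 under NP-IWP2 and 0.541 after replating, so the passaged library was no longer the highest. On day 3 JAG1 exceeded DLL3 in the passaged library alone, whereas on days 7 and 10 it did so in all arms, with DLL3 to JAG1 ratios of 0.0281 to 0.0976.

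**Figure D4:**
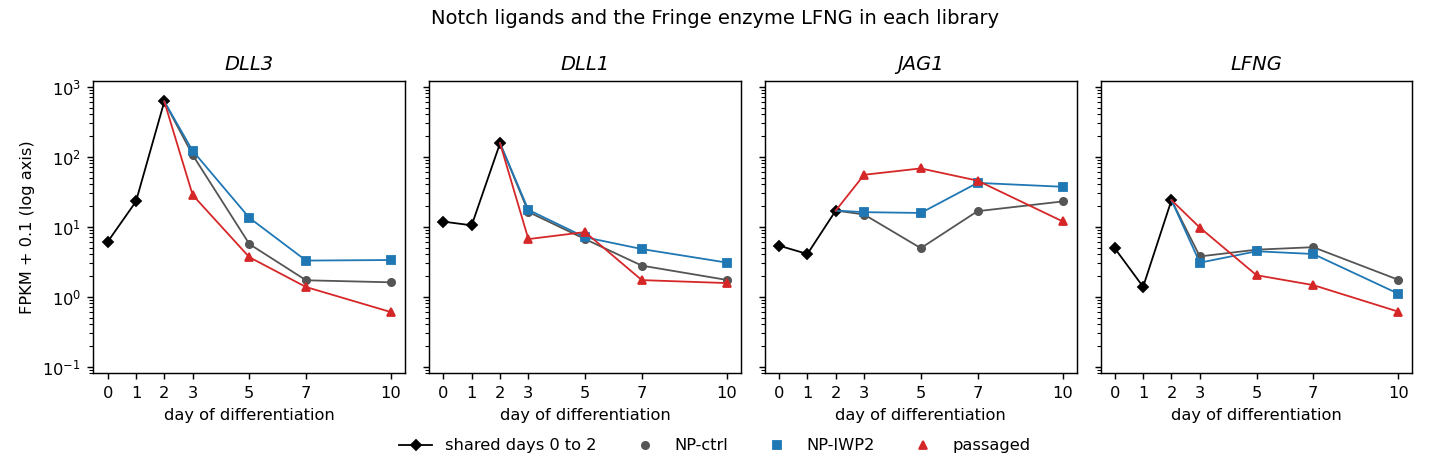
FPKM + 0.1 (log axis) of DLL3, DLL1, JAG1 and LFNG against the day of differentiation, 1 point per library, coloured by arm. DLL3 and DLL1 peak on day 2 at 612 and 155 FPKM, while JAG1 reaches 54.9 on day 3 and 67.7 on day 5 in passaged cells against 14.8 and 4.82 in NP-ctrl.

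In the tailbud list of 17 genes, 4 were called lower in passaged cells on day 3 (CYP26A1, FGF17, WNT8A and CDX2) and 2 higher (NKX1-2 and SOX2), against 3.48% and 5.02% of all genes, with a median of 0.02. CYP26A1, an enzyme that breaks down retinoic acid, read 32.4 FPKM on day 2 and then 4.23 under NP-ctrl, 18.9 under NP-IWP2 and 0.12 after replating. It thus stood higher in NP-IWP2 than in NP-ctrl on day 3. Of 10 primitive streak genes, MIXL1 and EOMES were called lower and none higher, beside the same shares of all genes. TBXT, the classic streak factor, had already fallen from 214 FPKM on day 1 to 95.4 on day 2 and to between 1.91 and 3.03 on day 3 in all arms. Its peak preceded that of the 7 genes by a day, although for MSGN1 the margin of day 2 over day 1 lay within counting error.

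Lists for other cell types that the cultures could hold were counted on day 3 between passaged cells and NP-ctrl, where 3.48% of all genes were lower and 5.02% higher. Of 10 endoderm genes, 3 were lower (CER1, EOMES and HHEX) and PRDM1 higher. Of 8 endothelial and blood genes above the filter, KDR was lower. Of 10 cardiomyocyte genes MYL4 was lower, although the list median was 0.12. Of 8 pluripotency genes SOX2 was higher, although the list median was −0.50. Both genes were also called in the same directions in NP-IWP2 against NP-ctrl, where 4.15% of all genes changed in either direction. Of 5 intermediate mesoderm genes above the filter none was called.

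How alike the 7 genes were over the whole course is described by the Pearson correlation of log2(FPKM + 1) over the 15 libraries, which share the early time points and a common culture. The members were chosen with their timing and their loss after replating known, so likeness among them follows in part from that choice. MESP1 and TBX6 had r = 0.983, MESP2 and TBX6 0.966, MESP1 and MESP2 0.948, and MESP1 and DLL3 0.940. MSGN1 was closest to HES7 (0.863), and LFNG reached 0.377 to 0.658 with the others. Among the 10171 protein-coding genes that reached an FPKM of 5, the most like MESP1 was TBX6, the most like TBX6 was MESP1, and the most like MESP2 was WNT4, with r = 0.982.

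The highest levels of the nearest genes outside the 7 ranged from 6.01 FPKM for WNT4 to 79.5 for WNT8A. WNT4, a WNT ligand, read 0.14 FPKM on day 1, 6.01 on day 2, and 4.35, 4.21 and 0.46 on day 3 under NP-ctrl, under NP-IWP2 and after replating. ARHGAP40 was among the 5 most like genes for all of MESP1, MESP2 and TBX6 (r = 0.943, 0.977 and 0.971). Its levels were 10.3 on day 2 and 2.77, 5.64 and 0.43 on day 3. The remaining ones were FAM24B for MESP1 (0.943), WNT8A (0.971) and TNFRSF11A (0.965) for MESP2, and CYP26A1 (0.952) and ZNF836 (0.951) for TBX6.

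The neighbours on the chromosomes were examined because counting may not have used the strand of the reads. The MESP pair is flanked by WDR93, 5023 bases from MESP1, and ANPEP, 6141 bases from MESP2, and both had a similar rise. WDR93 read 0.39 FPKM on day 1, 5.02 on day 2, and 3.17, 8.37 and 0.36 on day 3 under NP-ctrl, under NP-IWP2 and after replating. It was 8.80-fold lower after replating than under NP-ctrl (5.55 to 14.7). ANPEP, an aminopeptidase, read 0.86, 15.1, and then 19.8, 24.1 and 10.3, so it was 1.93-fold lower in passaged cells (1.77 to 2.12) without a call. WDR93 was also 2.64-fold higher in NP-IWP2 than in NP-ctrl (2.24 to 3.12), beside ratios of 0.936 for MESP1 and 1.15 for MESP2.

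**Figure D5:**
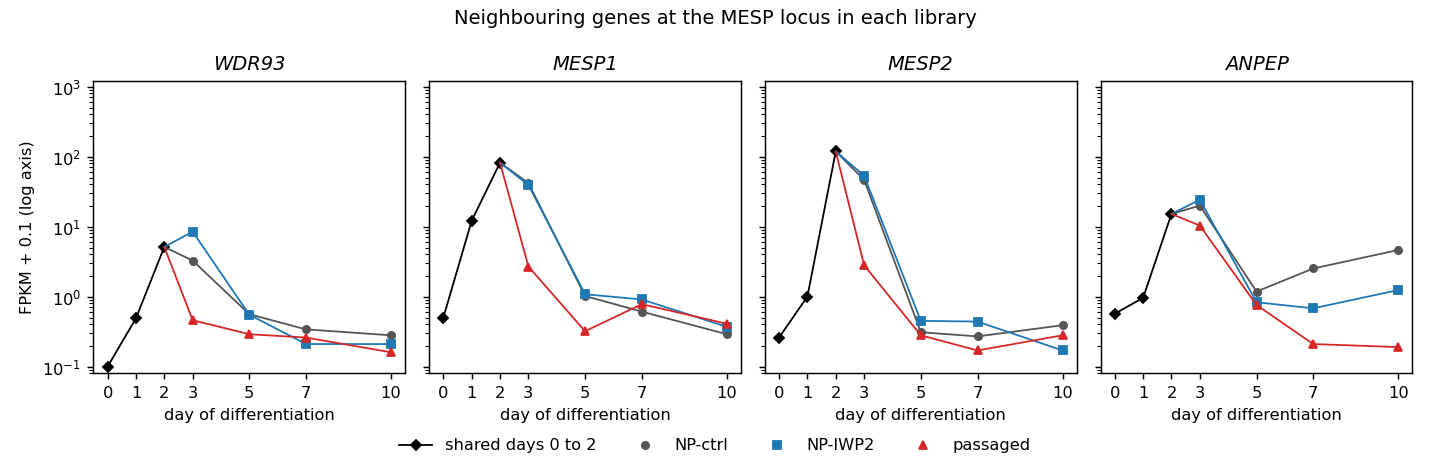
FPKM + 0.1 (log axis) of the 4 neighbouring genes of the MESP locus in chromosomal order against the day of differentiation, 1 point per library, coloured by arm. All 4 are higher on day 2 than on day 1, and on day 3 the passaged library is at 0.36 FPKM for WDR93, 2.59 for MESP1, 2.71 for MESP2 and 10.3 for ANPEP.

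Away from this locus the neighbours mostly had courses of their own, but YPEL3, SELENOV and PER1 moved in part with the members beside them. Of the 12 genes that directly flank a member, WDR93 and ANPEP included, 10 passed the filter. On day 2, 3 were called higher than on day 1 (WDR93, ANPEP and SELENOV), against 4.34% of all genes. On day 3, 3 were called lower after replating than under NP-ctrl (WDR93, YPEL3 and SELENOV), against 3.48%. TBX6 lies 417 bases from PPP4C and 390 from YPEL3. PPP4C stayed between 47.5 and 67.2 FPKM from day 0 to day 3 while TBX6 ranged from 0.28 to 47.6. YPEL3 read 7.08 FPKM on day 1 and 13.9 on day 2. Its day 3 levels were 21.9 under NP-ctrl, 20.3 under NP-IWP2 and 8.80 after replating. It was highest in NP-ctrl on day 7 at 22.9, when TBX6 was at 0.86. SELENOV, 6632 bases from DLL3, was 2.35-fold higher on day 2 than on day 1 (1.86 to 2.99), against 27.0-fold for DLL3. Its day 3 levels were 6.75 FPKM under NP-ctrl, 9.03 under NP-IWP2 and 2.87 after replating. PER1, 16366 bases from HES7, peaked on day 2 like HES7, at 11.4 FPKM against 6.17 on day 1, without a call. On day 3 PER1 read 5.54 under NP-ctrl, 7.70 under NP-IWP2 and 4.87 after replating.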

How the data were processed

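Bulk RNA sequencing of 15 H1 libraries was analysed from 1 deposited table. The authors trimmed reads with cutadapt (1.9.1), aligned them with HISAT2 (2.0.1) to hg38 and used HTSeq (0.6.1) to make the deposited counts per Ensembl gene, per the submitters' processing notes, which also name DESeq2. The deposited FPKM values are these counts scaled by exonic length and library total, and recomputing them differed by at most 0.005. The library kit named is for long reads whereas these tools are for short reads, so trends with gene length carry that doubt. Use of strand was not stated. Coordinates are those of the table, and 93.8% of the 60463 genes matched to GENCODE 44 had the same start and end.

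Groups came from the labels. With 1 library per arm and day, no test across libraries was made. Differences used log2(FPKM + 1) on the 21206 genes whose FPKM reached 1 in any library, a call needed a difference of 1, and ratios carried exact 95% Clopper-Pearson counting intervals, checked on simulated counts. A ratio against 0 counts was set at a floor of 3 counts and given as a bound. The genes named are the 7 members, their chromosomal neighbours, the 5 protein-coding genes most correlated with each of MESP1, MESP2 and TBX6, and per list up to 4 genes in each direction with the largest day 3 difference, or the highest later level for the cardiac and somite lists. RSPO3, RIPPLY2, DUSP4, EPHA4, ROR2, TBXT, MEOX1, PAX3, TCF15, MEOX2, PAX1, ISL1, FOXF1 and TBX3 were named after their values were seen. So were TBX20, MCM5, MKI67, TYMS, CDK1, CCNB1, CCNA2 and TOP2A. The members and the lists were chosen with earlier results of these data known. Alternatives were a pseudocount of 0.1, TPM, median-of-ratios and TMM scaling (edgeR 4.0.16, R 4.3.3), totals without mitochondrial genes, no filter, a filter of 5 and a call of 2. Other steps used Python 3.11.15 with pandas 2.3.3, numpy 2.4.6, scipy 1.17.1 and matplotlib 3.10.9.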

Additional observations from a re-analysis of the deposited data

Results flagged for a closer look

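LFNG differed between passaged and static cells in opposite directions on different days. On day 3 its FPKM after replating was 2.62 times the NP-ctrl value, and then 0.419 times on day 5, 0.273 times on day 7 and 0.31 times on day 10. Against NP-IWP2 the day 3 ratio was 3.24, followed by 0.442 on day 5 and by 0.343 on day 7. The counting interval of each of these ratios excluded 1. With 1 library per arm and day, the difference between the days was not tested.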

How the results depend on the processing

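All comparisons are between single libraries, so no replicate could be left out and no paired analysis was possible because each arm has 1 library per day. No direction was reversed for a called value. With a call of 2, genes of the 7 called lower numbered 3 in place of 6 between day 2 and day 3 in NP-ctrl and 3 in place of 5 between NP-ctrl and passaged cells on day 3, LFNG was no longer called higher (0), and 1 in place of 5 was higher on day 1 than on day 0. On day 3 the same call gave 0 Notch genes in either direction, 3 cardiac genes lower, 0 presomitic genes higher and 2 lower, and 1 tailbud gene higher and 2 lower. A pseudocount of 0.1, which weighs low genes more, gave 3 genes of the 7 called lower after replating than under NP-ctrl on day 5 in place of 0, 1 lower in NP-IWP2 on day 3 in place of 0, 2 cardiac and 3 somite genes higher and 7 tailbud genes lower. TPM, which raised the median of all genes by 0.25 between NP-ctrl and passaged cells and by 0.12 between NP-ctrl and NP-IWP2 on day 3, gave 3 of the 7 lower on day 5, 3 presomitic, 4 somite, 2 cardiac and 4 tailbud genes higher and 1 Notch gene lower. TMM and median-of-ratios scaling left 1 Notch gene higher in place of 2. With TPM, MESP1 was also called lower from day 2 to day 3 in NP-ctrl (−1.06), making 7 of the 7. Over all genes, 59.1% of the calls on day 3 between passaged cells and NP-ctrl were higher, against 48.5% with median-of-ratios scaling, 48.7% with TMM and 75% with TPM. Summing MESP1 and MESP2 into 1 gene, chosen after seeing the data, left 4 genes lower on day 3. The number of all genes changed between NP-ctrl and passaged cells on day 3 was 1801, against 4830 with a pseudocount of 0.1, 4501 with TPM, 1030 with a filter of 5 and 155 with a call of 2, and the other pairs moved likewise (1484 against 4417, 3410, 939 and 211 for day 2 and day 1, 880 against 2975, 2361, 281 and 51 for NP-IWP2 and NP-ctrl, 1844 against 4523, 3839, 958 and 213 for passaged and NP-IWP2). Each of the 7 genes peaked on day 2 under every scaling tried, although the margin of MSGN1 over day 1 lay within counting error in the main setting.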
